A study of Drosophila melanogaster with 11 samples.

Results

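The genes described here are 10 core genes of the Wingless pathway, wg, fz, fz2, arr, dsh, Axn, sgg, arm, pan and nkd, in a map of where the Notch-regulated repressor E(spl)m8-HLH (m8) met DNA in Drosophila embryos. A gene was counted as named by a peak if the peak intersected it or, where the peak intersected no gene, if it flanked the peak. By this rule 8 of the 10 genes were named by at least 1 peak of the Qseq table. Across all 17557 annotated genes of the chromosome arms, 2416 (13.8%) were named in the same way. The rule for choosing the 10 genes names their role in the pathway and uses no peak value, but they were chosen with earlier results of these data known.

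The study used ChIP and DamID to ask where Su(H), m5 and m8 act on chromatin, in 6 conditions and 11 libraries. Column names of the deposited peak tables give m8 and DamID and no Gal4. They were therefore taken as 1 condition, m8-DamID without a driver (un-driven), and 1 library out of 2 was listed there. That no driver was present is inferred from the name, as no label states it. Libraries of the remaining 5 conditions are not analysed here. In the un-driven condition, embryos carried UAS-m8-Dam with no Gal4. By the paper's account, a low basal expression of the transgene in all tissues supplied the fusion protein. Whole embryos were used, at stage 9 to 16 and kept at 26 °C. In DamID the fused methyltransferase methylates GATC sites close to where the protein sits, and the fragments that DpnI cuts out between methylated sites are amplified and sequenced. No library of unfused Dam, which would show the open chromatin that the enzyme marks by itself, is among the 11 libraries listed. The part of such marking in any peak below was not tested. With 1 library there is no replicate check, and no test was made.

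Wingless is a secreted Wnt ligand that patterns embryonic segments and gives neuroblasts part of their identity. It binds a Frizzled receptor and the co-receptor Arrow, and Dishevelled then inactivates a complex of Axin and the kinase Shaggy that otherwise marks Armadillo, the fly beta-catenin, for degradation. Stable Armadillo enters the nucleus and works with Pangolin, the fly TCF, on target genes, among them nkd, whose product dampens the signal. Hairy and E(spl) proteins are repressors that recruit Groucho and bind E box-like and N box-like sites.

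The peaks at wg are the only ones of the 10 genes whose positions could be read in the Release 6 genome, since the numbering of the tables there matches it. Within 1 Mb of wg, all 49 gene and Qseq peak pairs overlapped in Release 6. The Qseq peak at wg lay at chr2L:7307583-7308217 and held 71 reads, or 36.9 reads per 1000000 reads of the library (RPM). It began exactly at the DpnI cut of a GATC site at 7307581 to 7307584. That site lies 11 bp before the start codon of wg. The next GATC site, at 7308161 to 7308164, lay 580 bp further on, and the peak ran 55 bp past its cut. These 4 stretches of the wg region are shown because they carry the sites that bound the fragment and some of the motif matches inside the peaks. They are shown on the + strand, which is the coding strand of wg, with capitals for GATC and for matches to the E box, E(spl) site and N box patterns in the first 3, and for a match to the Pangolin core in the last one.
wg exon 1 and intron 1, chr2L:7307581-7307880: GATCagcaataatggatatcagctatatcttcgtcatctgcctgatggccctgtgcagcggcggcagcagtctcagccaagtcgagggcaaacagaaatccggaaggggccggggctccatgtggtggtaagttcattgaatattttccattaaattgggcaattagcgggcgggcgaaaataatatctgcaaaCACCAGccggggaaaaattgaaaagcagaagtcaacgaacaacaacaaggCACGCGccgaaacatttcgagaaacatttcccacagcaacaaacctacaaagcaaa
wg intron 1, chr2L:7308133-7308192: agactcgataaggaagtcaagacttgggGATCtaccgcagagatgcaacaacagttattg
wg intron 2, chr2L:7310389-7310688: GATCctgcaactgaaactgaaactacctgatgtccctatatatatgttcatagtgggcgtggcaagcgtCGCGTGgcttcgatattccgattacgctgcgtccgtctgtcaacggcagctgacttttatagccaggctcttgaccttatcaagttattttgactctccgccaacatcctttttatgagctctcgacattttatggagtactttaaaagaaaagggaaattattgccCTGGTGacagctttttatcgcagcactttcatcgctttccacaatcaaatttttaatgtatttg
upstream of wg, chr2L:7303074-7303133: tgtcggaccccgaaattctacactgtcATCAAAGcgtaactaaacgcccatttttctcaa

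The wg gene covers 9.11 kb, from 7307159 to 7316265 on 2L, with 1 annotated transcript of 5 exons. Of the Qseq peak, 125 bp lay in exon 1 and 510 bp in intron 1. Its counting interval was 28.8 to 46.5 RPM (exact Poisson, 95%, here and below). Such an interval covers counting error alone. Whether PCR copies of a molecule were removed before counting is not stated in the sources used. If copies were counted as reads of their own, the interval is too narrow. A peak of this height was common, as 56.0% of all Qseq peaks were at least as high. MACS, a second peak caller run by the authors on the same library, gave 4 peaks above 20 RPM for wg. One of them, of 33.2 RPM (25.6 to 42.5), overlapped the Qseq peak and covered all of it. The highest, of 89.3 RPM (76.5 to 104), lay wholly in intron 2, 2836 bp past the transcript start, and had no Qseq counterpart. The remaining pair lay upstream, between Wnt4 and wg, 4622 bp and 12309 bp before the transcript start, with 31.7 and 26.5 RPM. One more MACS peak, of 19.2 RPM, stood in the table of peaks under 20 RPM and lay 11331 bp upstream. The peak in intron 2 was thus the highest at wg in RPM and its interval did not overlap that of any other peak there, but only MACS called it. It was also the longest, at 1322 bp against 635 bp for the Qseq peak. Per kb of peak it held 130.1 reads, and the Qseq peak, the next densest, held 111.8. Whether they differ per kb was not tested.

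**Figure D1:**
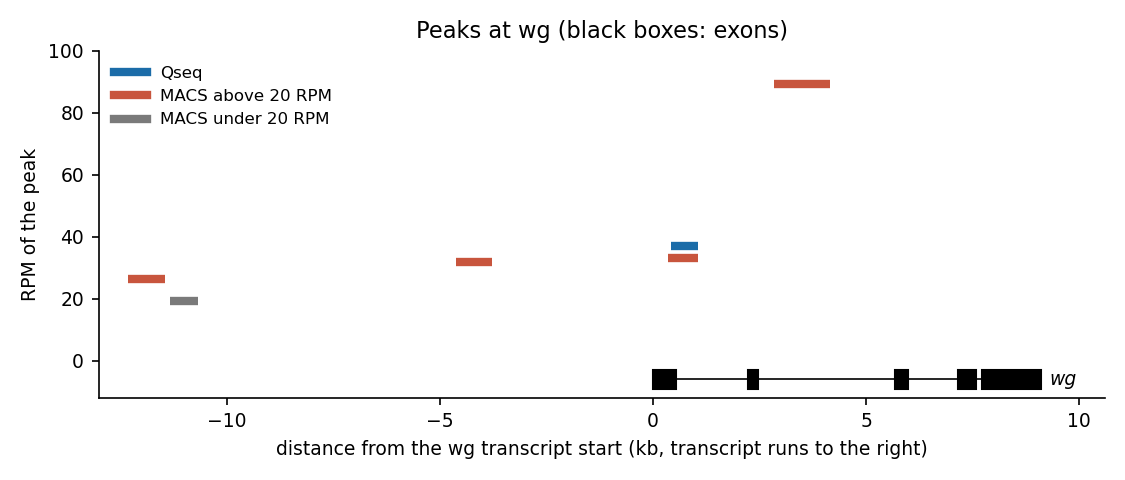
Peaks at wg. The horizontal axis is the distance from the transcript start in kb, the vertical axis is the RPM of each peak, bars span the length of the peaks, and black boxes are exons. Both callers placed a peak at the start of the gene (36.9 and 33.2 RPM), and MACS alone placed one of 89.3 RPM in intron 2 and 3 upstream.

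Sequence motifs in the peaks at wg were searched on both strands. The E box CACGTG had no match in any of the 6 peaks at wg. Most peaks on 2L lacked it too. It was in 10.4% of Qseq peaks, 16.3% of MACS peaks above 20 RPM and 9.72% of those under 20 RPM. The E(spl) and Hairy site CACGCG had 1 match in the Qseq peak, at 7307825, and the N box pattern CACNAG had 2 matches, at 7307775 and 7307912. The MACS peak over the Qseq peak held the same matches. The intron 2 peak held 1 match to CACGCG at 7310458, and 2 matches to CACNAG at 7310122 and 7310625. Neither MACS peak above 20 RPM upstream of wg (31.7 and 26.5 RPM) held a match to CACGCG or CACNAG. On 2L, 22.3% of the 694 Qseq peaks held CACGCG and 59.8% held CACNAG, and these shares were 30.4% and 76.2% among the 756 longer MACS peaks above 20 RPM. The core recognised by Pangolin, CTTTGAT, had 1 match in the MACS peak of 31.7 RPM upstream of wg, at 7303101, and 23.5% of the MACS peaks above 20 RPM on 2L held this pattern. The weak MACS peak of 19.2 RPM held 1 match each to CTTTGAT at 7295889, to CACGCG at 7295830 and to CACNAG at 7296261, where 12.1%, 11.3% and 49.0% of the 247 MACS peaks under 20 RPM on 2L held these patterns. No match shared bases with a match to another motif (0 overlaps). Matches of this kind were thus frequent in peaks of 2L in general.

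The receptor genes fz2 and fz differed in their number of peaks between the callers. The fz2 gene, which encodes a Wingless receptor, is 94.4 kb long on 3L and had 10 Qseq peaks, more than any other of the 10 genes. In order along the chromosome they measured 94.0, 76.4, 70.6, 68.0, 83.6, 20.8, 198.9, 101.3, 130.9 and 50.9 RPM, and together they spanned 57.1 kb. The seventh, of 383 reads (198.9 RPM, 179.5 to 219.9), was the highest, and its interval did not overlap that of the next highest (130.9 RPM, 115.2 to 148.1). All but the peak of 20.8 RPM were above the median of all Qseq peaks (40.5 RPM). In the whole genome 18 genes (0.103%) had as many Qseq peaks as fz2 or more. Among the 148 genes whose length is within 0.5 of that of fz2 on the log2 scale, 6 (4.05%) did. By MACS peaks above 20 RPM, 20 of these 148 genes (13.5%) had as many as the 7 of fz2, or more.

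MACS gave fz2 7 peaks above 20 RPM, from 28.6 to 175.6 RPM. Of the 10 Qseq peaks, 5 overlapped one of them. The other 5 stood next to each other, from 19148549 to 19159961 in the numbering of the tables, and had 20.8 to 83.6 RPM with no MACS peak in either table. Conversely MACS peaks of 28.6 and 57.1 RPM at fz2 had no Qseq counterpart. The callers thus shared the 5 peaks of 94.0, 198.9, 101.3, 130.9 and 50.9 RPM, the highest one among them.

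The fz gene, which encodes the other Wingless receptor and also acts in planar cell polarity, is 94.3 kb long on 3L, nearly the length of fz2, and had 4 Qseq peaks. They measured 35.3, 80.0, 30.6 and 151.7 RPM. The highest (134.8 to 170.1 RPM) stood 43936 bp beyond the third, apart from the others. All 4 were shared with MACS, which gave fz 8 peaks above 20 RPM (22.3 to 152.2 RPM) and called the highest at nearly the same value (152.2 RPM, 135.3 to 170.7). The 4 peaks that only MACS called at fz had 22.3 to 51.9 RPM. The table of peaks under 20 RPM added 1 of 8.31 RPM between CG7906 and fz. By number fz2 therefore led in the Qseq table (10 against 4), whereas fz led in the MACS table (8 against 7).

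The arr gene, which encodes the LRP co-receptor Arrow, is 29.6 kb long on 2R and had 3 Qseq peaks, all low. They measured 25.5, 36.4 and 21.8 RPM, below the median of the Qseq table in each case, and their intervals overlapped. MACS called 1 peak at arr (20.8 RPM, 14.8 to 28.3), which overlapped the third Qseq peak.

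**Figure D2:**
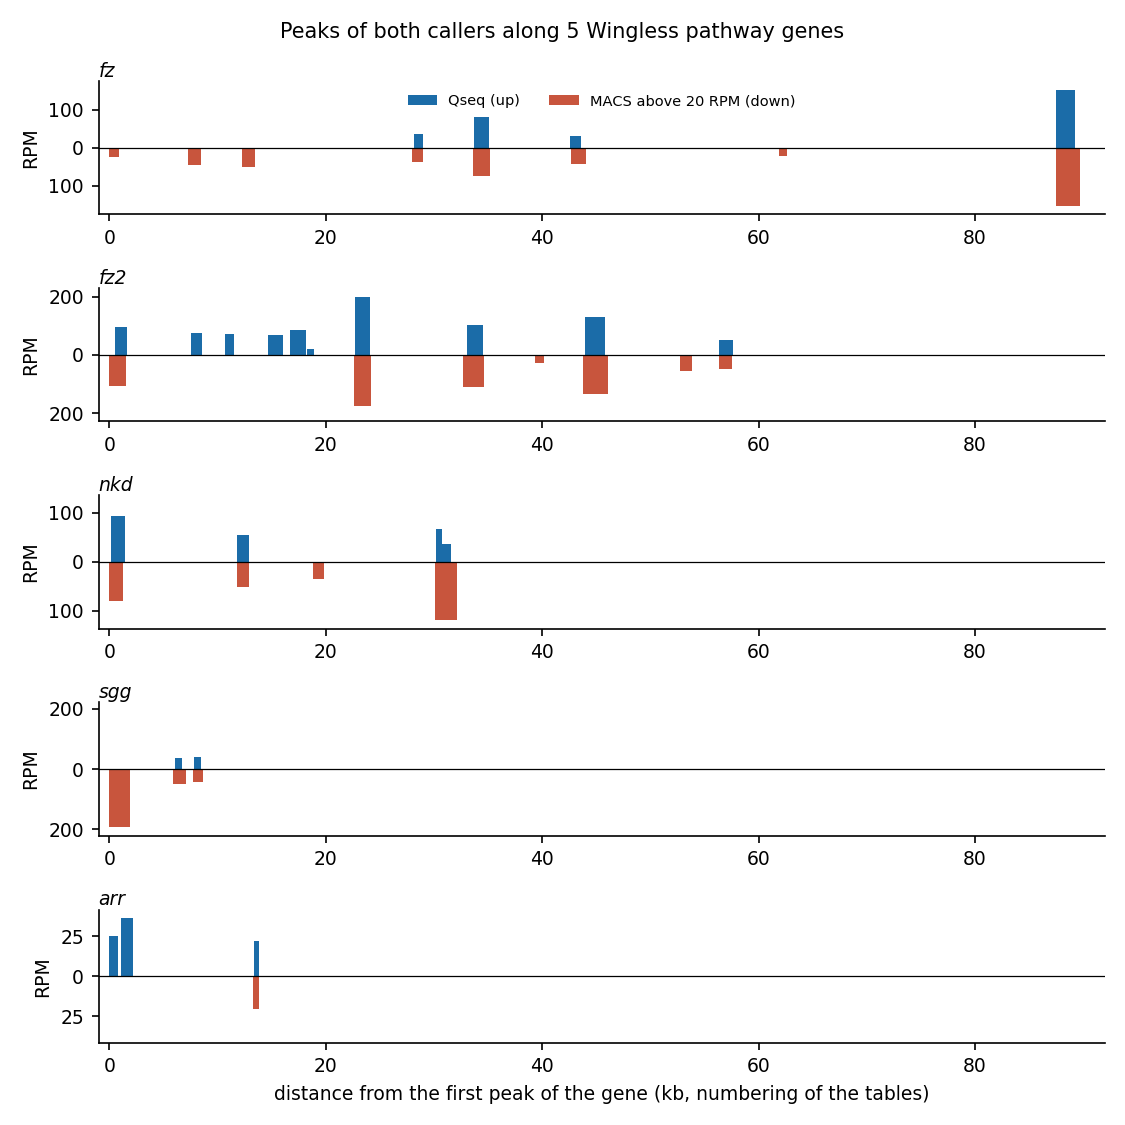
Peaks along the 5 genes with more than 1 Qseq peak. The horizontal axis is the distance in kb from the first peak of the gene in the numbering of the tables, bars upward are the RPM of Qseq peaks and bars downward those of MACS peaks above 20 RPM, with a vertical scale of its own for each gene. In fz2 a run of 5 Qseq peaks has no MACS counterpart, and in sgg the MACS peak of 192.2 RPM has no Qseq counterpart.

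Of the cytoplasmic genes, dsh and Axn had no peak in any of the 3 tables. Dishevelled relays the signal from the receptor, and Axin is the scaffold of the destruction complex. The dsh gene is 2.84 kb long on X, and Axn is 12.5 kb long on 3R. In Release 6, the 2 nearest protein-coding genes on either side of dsh (CG1737, NdufV3, Pa1 and hop) had no peak in any table either. Beside Axn, RpS28a and Mgat2 on its left were named by a MACS peak of 62.3 RPM and Mgat2 by a Qseq peak of 21.3 RPM, and ZIPIC and ocn on its right by none. Since the tables list only peaks that passed the thresholds of the callers, reads below a threshold at dsh and Axn cannot be given.

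The sgg gene, which encodes the kinase Shaggy (the fly GSK3), is 45.6 kb long on X and had 2 Qseq peaks of 35.3 and 39.997 RPM, whose intervals overlapped. Both were shared with MACS, at 49.9 and 42.1 RPM. MACS called another peak, at 2540115 to 2541974 in the numbering of the tables, of 370 reads (192.2 RPM, 173.1 to 212.8). It was the highest MACS peak at any of the 10 genes except pan and no Qseq peak touched it. The value that stands for sgg therefore rested on the caller, at 39.997 RPM by Qseq and 192.2 RPM by MACS.

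The arm gene, which encodes Armadillo, is 9.25 kb long on X and had 1 Qseq peak, of 141 reads (73.2 RPM, 61.7 to 86.4). MACS gave the same region 72.2 RPM (60.7 to 85.3) and a weak peak of 15.1 RPM elsewhere in the gene. Both callers thus gave arm a single peak above 20 RPM, of nearly equal height.

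The highest peak of the 10 genes lay in pan, which encodes the transcription factor Pangolin. The gene is 44.9 kb long on chromosome 4 and had 1 Qseq peak of 2313 bp, at 89313 to 91625 in the numbering of the tables, with 632 reads (328.3 RPM, 303.2 to 354.9). It ranked 90th of the 3973 Qseq peaks, and 2.27% of them were as high. Per kb of peak it held 273.2 reads, and 7.60% of the Qseq peaks were as dense. MACS called a single peak there too, of 267.5 RPM (244.9 to 291.6) over 3033 bp, which contained the Qseq peak.

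The nkd gene, which encodes the feedback inhibitor Naked cuticle, is 41.7 kb long on 3L and had 4 Qseq peaks. They measured 94.0, 55.6, 67.0 and 35.8 RPM along the chromosome. The last pair overlapped by 43 bp, and MACS called 1 peak of 118.4 RPM (103.6 to 134.8) over both. The first and the second were shared with MACS at 79.5 and 51.9 RPM. A MACS peak of 35.3 RPM between the second and the third had no Qseq counterpart. Peaks thus lay at 3 places in nkd by both callers and at 1 more by MACS alone.

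**Figure D3:**
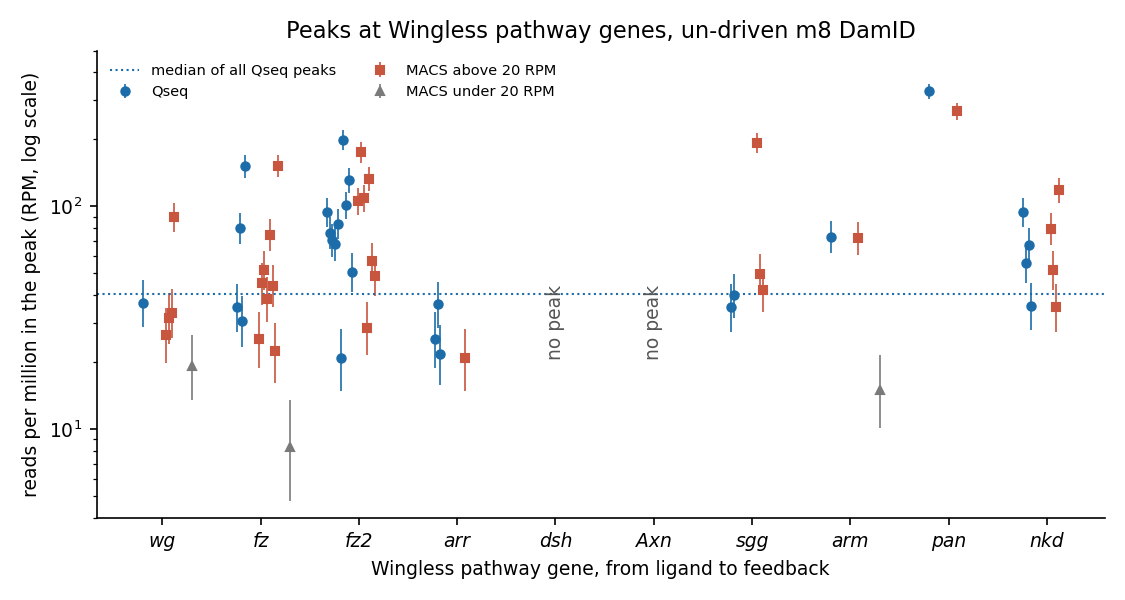
All peaks that name one of the 10 genes. The vertical axis is the RPM of a peak on a log scale, points are single peaks (blue circles Qseq, red squares MACS above 20 RPM, grey triangles MACS under 20 RPM), bars are exact Poisson intervals and the dotted line is the median of all Qseq peaks (40.5 RPM). The pan peak is the highest by both callers, the Qseq peaks of wg, arr and sgg lie below the median, and dsh and Axn have none.

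By the highest Qseq peak the order was pan (328.3 RPM), fz2 (198.9 RPM), fz (151.7 RPM), nkd (94.0 RPM), arm (73.2 RPM), sgg (39.997 RPM), wg (36.9 RPM) and arr (36.4 RPM). The intervals of nkd and arm overlapped, and those of sgg, wg and arr overlapped, so that their order is within counting error. The other neighbours in this order were separated by more than their intervals. By the highest MACS peak above 20 RPM sgg took the second place (192.2 RPM), and wg (89.3 RPM) stood above arm (72.2 RPM). The intervals of sgg and fz2 overlapped, as did those of wg and arm, so that this order too is within counting error.

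In total the 8 genes held 26 Qseq peaks, all inside the genes and 0 between genes, from 20.8 to 328.3 RPM. Of all Qseq peaks 74.7% lay inside a gene, and 10.5% of all genes were intersected by one. At 40 RPM or more, 5 of the 10 genes and 8.54% of all genes were named. MACS peaks above 20 RPM named 8 of the 10 genes and 17.9% of all genes, and intersected the same 8 and 14.1% of all genes. MACS peaks under 20 RPM named 3 of the 10 (wg, fz and arm) and 7.42% of all genes, and either MACS table named 8 and 22.4%. The median of the 26 was 67.5 RPM against 40.5 RPM for the whole table, and 16 of them were above that median. RPM grows with the length of a peak, and these peaks were also longer, with a median of 1081 bp against 725 bp. In reads per kb of peak their median was 110.4 against 112.6 for the whole table, with 12 of 26 above it. The 29 MACS peaks above 20 RPM had a median of 51.9 RPM against 54.0 RPM for their table. The greater height in the Qseq table was therefore not seen per kb of peak, nor by MACS.

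Of the 26 Qseq peaks, 19 overlapped a MACS peak, and all 19 did so with 50% or more of their length, while 78.3% of all Qseq peaks overlapped one. Of the 29 MACS peaks above 20 RPM, 18 overlapped a Qseq peak, against 62.3% of all such peaks. Of the 7 Qseq peaks with no MACS counterpart, 5 lay in fz2 and 2 in arr. Of the 11 MACS peaks with no Qseq counterpart, 4 lay in fz, 3 at wg, 2 in fz2, 1 in sgg and 1 in nkd.

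Long genes were named more often than short ones, and the 10 genes are long, with a median of 35.6 kb. Of all genes under 5 kb, 7.56% were named by a Qseq peak, and dsh, the member of this class, was not. Between 5 and 20 kb the share was 32.2%, and wg and arm were named and Axn was not. Between 20 and 50 kb the share was 49.2%, and arr, sgg, pan and nkd were all named. Over 50 kb it was 60.6%, and both fz and fz2 were named. The 8 of 10 is thus to be read against shares of 7.56% to 60.6% by length, and not against 13.8% alone.

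**Figure D4:**
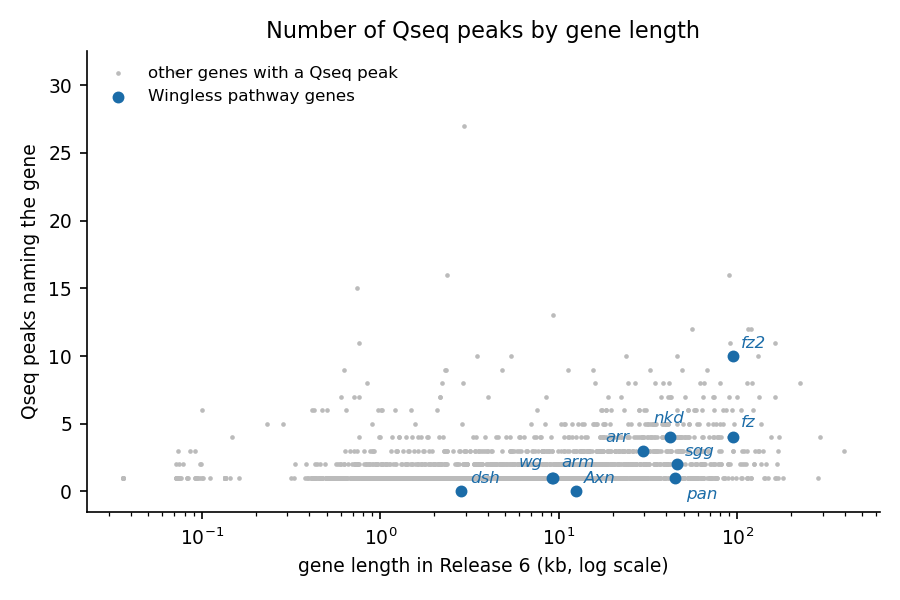
Number of Qseq peaks by gene length. The horizontal axis is the length of the gene in kb on a log scale, the vertical axis is the number of Qseq peaks that name it, grey points are other genes with at least 1 peak and blue points are the 10 Wingless pathway genes. The points of wg and arm fall on each other (9.11 and 9.25 kb, 1 peak each), and fz2 has 10 peaks at 94.4 kb where fz has 4 at 94.3 kb.

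A wider list of 53 genes of the pathway, grouped by role, was read in the same way. Of these 53 genes, 21 were named by a Qseq peak (against 13.8% of all genes). A Qseq peak intersected 15 of the 53 (against 10.5% of all genes). By MACS peaks above 20 RPM 28 were named (against 17.9% of all genes), and 34 were named in at least 1 of the 3 tables (against 23.3% of all genes). The median length of the 53 genes was 9.27 kb. By length, 6 of 18 genes under 5 kb, 6 of 18 between 5 and 20 kb, 6 of 13 between 20 and 50 kb and 3 of 4 over 50 kb were named in the Qseq table. For all genes of these classes the shares were 7.56%, 32.2%, 49.2% and 60.6%.

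Of the other Wnt ligands, only Wnt2 was named by a Qseq peak (1 of 6), which flanked the gene with 22.9 RPM. Qseq named 13.8% of all genes, and 32.2% of those between 5 and 20 kb, where the list median (11.6 kb) lies. MACS peaks above 20 RPM named Wnt2, Wnt4, Wnt5 and wntD, with at most 77.9, 59.7, 90.9 and 116.9 RPM. Such peaks named 17.9% of all genes, and 41.4% of those between 5 and 20 kb. The peak of Wnt2 lay beside the gene. Of the 3 peaks of Wnt4 only 1 lay inside it, and the others are the peaks upstream of wg, counted there too. Wnt6 and Wnt10, which lie in the same cluster of Wnt genes on 2L as wg and Wnt4, had MACS peaks under 20 RPM only (15.6 and 13.5 RPM). Each of the 6 was thus named in at least 1 table (against 23.3% of all genes). But wg was the only ligand gene of the pathway with a Qseq peak inside it.

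Among the genes for secretion, spread and inactivation of the ligand, 3 of 7 were named by Qseq, against 13.8% of all genes. The list median is 12.9 kb, and 32.2% of all genes between 5 and 20 kb were named. The 3 were dally and dlp, which encode the cell surface glypicans that bind Wingless, with 288.8 and 72.7 RPM, and Notum, whose product inactivates it, with 35.3 RPM. The dally gene had 6 Qseq peaks, and its highest MACS peak had 83.6 RPM (71.2 to 97.6), below the Qseq value of 288.8 RPM (265.3 to 313.8). Swim was named by MACS with 31.7 RPM, and sfl by a weak MACS peak of 16.6 RPM. No peak of any table named por or wls, which act in the cells that secrete the ligand.

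Of the other Wnt receptors, 4 of 7 were named by both callers. Across all genes Qseq named 13.8% and MACS above 20 RPM 17.9%. Between 5 and 20 kb, where the list median (18.3 kb) lies, these shares were 32.2% and 41.4%. The highest Qseq peak had 194.3 RPM at fz3, 124.1 RPM at otk, 75.3 RPM at drl and 29.6 RPM at dnt. All Qseq peaks of dnt lay beside the gene, so that a Qseq peak intersected 3 of the 7 (against 10.5% of all genes). For fz3, a target gene of the pathway that encodes another Frizzled protein, MACS gave 196.9 RPM, within the Qseq interval (175.1 to 215.0 RPM). For fz4, Drl-2 and Ror there was no peak in any table.

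In the destruction complex and among its partners, Qseq named 2 of 8 genes (against 13.8% of all genes and 32.2% of those between 5 and 20 kb, where the median of the list of 8.21 kb lies), the casein kinase genes gish (121.5 RPM) and CkIalpha (42.6 RPM), and MACS added slmb (32.7 RPM), whose product is the ubiquitin ligase subunit that recognises marked Armadillo. Apc, Apc2, Tnks, mts and wdb had no peak in any table, as was the case for Axn.

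Of the nuclear cofactors, Qseq named 2 of 10, against 13.8% of all genes. The list median is 8.25 kb, and 32.2% of all genes between 5 and 20 kb were named. The 2 were the Mediator subunit gene skd (167.3 RPM by Qseq, 176.1 RPM by MACS) and the CBP gene nej (20.8 RPM by Qseq, with a MACS peak of 18.2 RPM). MACS alone named osa, which encodes a Brahma complex subunit, with 183.4 RPM, and hyx with 38.4 RPM. No peak named lgs and pygo, which encode the adaptors that Armadillo recruits, nor gro, which encodes the co-repressor of both Pangolin and the E(spl) proteins.

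Of the planar polarity partners of fz and dsh, pk was named by Qseq (1 of 4, 21.3 RPM) and by MACS (30.1 RPM), and stan by MACS (40.5 RPM). Qseq named 13.8% of all genes, and 49.2% of those between 20 and 50 kb, where the list median (25.8 kb) lies. No peak named Vang or dgo.

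Of the embryonic genes known to respond to Wg, 8 of 11 were named by Qseq (against 13.8% of all genes). A Qseq peak intersected 4 of the 11 (against 10.5% of all genes). Their lengths ran from 1.425 kb (slp1) to 77.8 kb (Ubx), and shares of all genes by length were 7.56% to 60.6%. The highest Qseq peaks had 64.4 RPM at slp2, 33.2 RPM at slp1, 30.1 RPM at gsb and 27.5 RPM at eve, all of them beside the gene and not inside it, and slp1 and slp2, which are neighbours, share 1 peak. The peaks at en, Ubx, lab and ovo had 21.8 to 25.5 RPM. The highest Qseq peaks of these genes, except that of slp2, lay below the median of the Qseq table. By MACS slp2 had 127.3 RPM and ovo 56.1 RPM, both above the median of the MACS table (54.0 RPM), and Dll was named in no table.

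**Figure D5:**
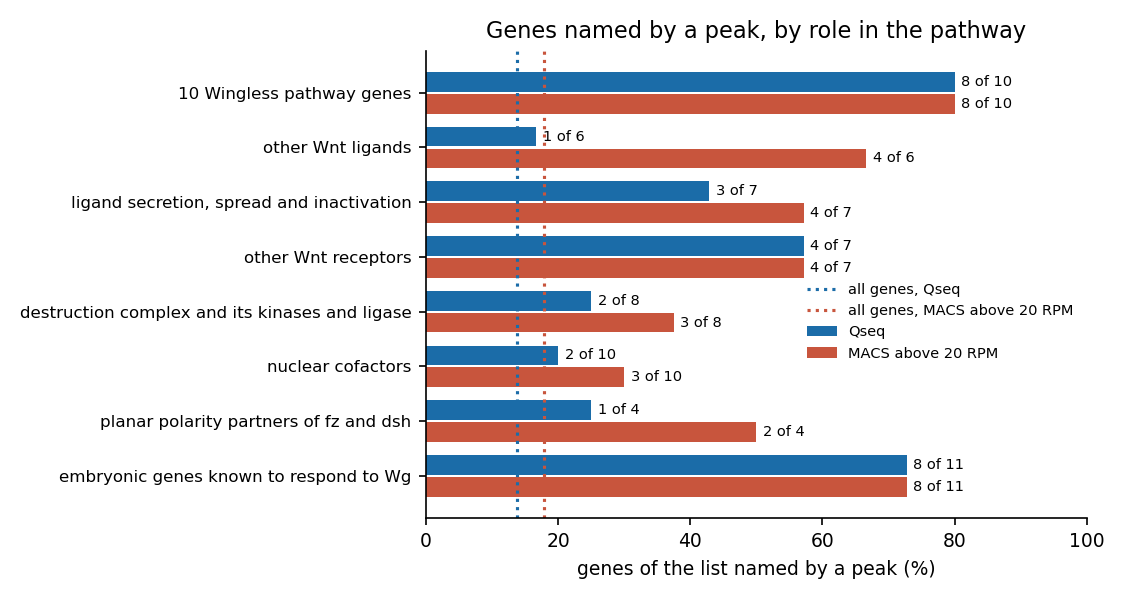
Share of genes named by a peak, by role in the pathway. The horizontal axis is the percentage of the genes of a list that a Qseq peak (blue) or a MACS peak above 20 RPM (red) names, with the counts beside the bars, and the dotted lines are the shares of all 17557 genes (13.8% and 17.9%). The bars are not adjusted for gene length.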

How the data were processed

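The Wingless genes and the wider lists were chosen with earlier results of these data known. The authors assembled the reads with SeqMan NGen and called peaks with Qseq at 20 RPM or more and a p-value under 0.05. They also deposited MACS peaks above and under 20 RPM, and MACS settings were not given in the sources used. The deposited RPM is the reads of a peak per 1000000 reads of the library, and the deposited Qseq count is the number of reads in a peak. RPM values are scaled to 1925156 reads, and MACS values gave whole reads within 0.01 in 100% of peaks. The exact intervals (95%) were computed from these reads and cover counting error only.

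Because their names hold no Gal4, columns were mapped to the un-driven m8-DamID. Neither of its 2 libraries could be matched by name. Of the names in the tables, 4121 of 4521 (91.2%) matched a Release 6 gene, and names cut at a bracket were left out. Gene lengths come from the RefSeq genes of Release 6, and transcripts from Ensembl release BDGP6.54. The study names dm6, and positions in the tables overlap the named gene in Release 6 in 98.7% of pairs on 2L, 65.9% on 3L, 46.2% on 4, 3.21% on X, 0% on 2R and 0% on 3R. On 2L 21.3% of Qseq peaks start exactly at a DpnI cut, and on 3L 5.53%. Sequence was therefore read on 2L only, and positions elsewhere are in the numbering of the tables. An overlap needed 1 bp. All 10 Wingless genes were named, and of each wider list up to 4 genes with the highest RPM and every gene with a peak where 5 or fewer had one. Genes named for having no peak, and neighbours of dsh and Axn, were added after their values were seen. The alternatives were peaks inside genes, 40 RPM, either MACS table, peaks within 500 bp joined, reads per kb, 50% overlap and the central 400 bp for motifs. The classes of gene length, the genes of like length and the comparison with DpnI cuts were chosen after seeing the data. The interval was tested on simulated data. For the naming rule only the counting of planted names was checked, which does not test the rule itself. Python 3.11.15 was used, with scipy 1.17.1, pandas 2.3.3, matplotlib 3.10.9 and numpy 2.4.6.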

Additional observations from a re-analysis of the deposited data

How the results depend on the processing

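No paired analysis was possible because 1 library alone was listed. With a threshold of 40 RPM, 5 of the 10 Wingless genes kept a Qseq peak in place of 8, with 16 peaks in place of 26. MACS peaks under 20 RPM named 3 of the genes. By MACS peaks above 20 RPM, the highest peak changed from 36.9 to 89.3 RPM for wg, from 198.9 to 175.6 RPM for fz2, from 36.4 to 20.8 RPM for arr, from 39.997 to 192.2 RPM for sgg, from 328.3 to 267.5 RPM for pan and from 94.0 to 118.4 RPM for nkd. For fz and arm it moved by less than the counting interval. Peaks inside genes alone, both MACS tables together, joined peaks (23), MACS peaks above 20 RPM (29) and 50% overlap (19) gave values within 1.5 times the main count or the same count. For the 53 wider genes, MACS gave 28 and peaks inside genes 15, against 21. Counting flanking genes always changed nothing, because the tables list them only where no gene is intersected. Per kb of peak, 22.02% of Qseq peaks were as dense as that of fz, against 8.05% as high, 46.3% against 24.8% for arm, 7.60% against 2.27% for pan and 8.78% against 5.21% for fz2. For nkd the share fell from 17.4% as high as its highest peak to 10.4% as dense as its densest, which is its peak of 67.0 RPM. At about 1.93 reads per RPM, a peak of 20 RPM rests on about 40 reads (40 reads gave 14.8 to 28.3 RPM), so that the order of low peaks is not resolved at this depth.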
